A study of Mus musculus with 6 samples.

Results

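RNase H1 and 9 further genes were followed in the dorsal hippocampus of mice injected with antisense oligonucleotides (ASOs). The list covers cleavage of RNA directed by ASOs, decay of the cut RNA and binding of ASOs, and it also holds Ppib, a common reference gene. The genes were chosen by name, with earlier results of these data known: Rnaseh1, Xrn1, Xrn2, Ssb, Nono, Sfpq, Pspc1, Anxa2, Npm1 and Ppib. They are 10 of the 55401 genes in the count files. All 10 passed the filter on low counts, which left 19969 genes for the test, and the lowest member count in any library was 244 read pairs.

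The study injected ASOs into the dentate gyrus of wild type littermates of Ts65Dn, a mouse model of Down syndrome, at 4 months of age. One group of 3 libraries came from mice given Snhg11-ASO, directed at the long non-coding RNA Snhg11, and the other 3 libraries from mice given Control-ASO, which holds the same nucleotides in scrambled order. Each hemisphere received 50 µg, and the dorsal part of the hippocampus was taken 3 days later. The libraries were stranded, paired-end and made from total RNA depleted of ribosomal RNA. Both groups therefore carry the surgery, the same dose and the same oligonucleotide chemistry, and no uninjected tissue was analysed here. The study names male mice for its PCR of Snhg11 in this tissue, whose RNA was also sequenced, and the injected dentate gyrus is only one part of the tissue sampled. The study's methods give 3 mice per group for this tissue, but the labels do not tie each library to an animal, so the p-values below measure the spread between these libraries.

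RNase H1 is the enzyme that cuts RNA paired with DNA, and ASOs of the gapmer kind recruit it to their target through a central stretch of DNA sugars. The cut RNA ends are then removed by exonucleases, XRN2 in the nucleus and XRN1 in the cytoplasm. A phosphorothioate backbone also makes ASOs bind many proteins that do not cut RNA, among them paraspeckle proteins, the La protein, nucleophosmin and annexin A2, which are known to affect where ASOs go in the cell and how active or toxic they are. The study calls its control a gapmer in one place and describes uniform 2′-methoxyethyl sugars in another, so the presence of a DNA gap in these ASOs is not settled by the sources used here.

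Between 28951250 and 43997537 read pairs per library were assigned to genes on the reverse strand, the strand this kit reads. The 3 Snhg11-ASO libraries were all deeper than the 3 Control-ASO libraries, so depth and treatment cannot be told apart, and all levels below are CPM, the count of a gene scaled by the size of its library. Snhg11 itself was at 551, 436 and 209 CPM in Control-ASO and at 139, 65.4 and 69.4 CPM in Snhg11-ASO. The groups did not overlap, in the direction of the labels, with a log2 fold change of -2.13 (SE 0.43, edgeR adjusted p = 0.395, DESeq2 adjusted p = 3.79e-05). Snhg11-ASO replicate 1 stood apart from the other libraries, with Spearman correlations to them of 0.955 to 0.959 where all other pairs lay between 0.979 and 0.991. Values without it are given beside the results it moved most.

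Of the 10 genes, Anxa2 was the one with a large difference: its mean was about 3 times higher in Snhg11-ASO, and each library there lay above each control. Much of that size came from Snhg11-ASO replicate 1: the log2 fold change was 1.64 with all libraries and 0.86 without it. Rnaseh1, Xrn1 and Ssb also had groups that did not overlap, at differences of 0.12 to 0.25 on the log2 scale. Over all tested genes 15.4% had groups apart. Nono, Sfpq, Pspc1, Npm1, Xrn2 and Ppib had overlapping groups. No member passed an adjusted p of 0.05 in the quasi-likelihood test of edgeR after the adjustment of Benjamini and Hochberg, where 0% of all genes did (0 of 19969, smallest adjusted p = 0.237). The same test gave 1619 genes at an unadjusted p under 0.05, limma-voom with sample weights called 7 genes after adjustment, and DESeq2 called 251 of 18570 (1.35%). Anxa2 was among the DESeq2 calls, at an adjusted p of 0.0177, and the other 9 members were not.

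**Figure D1:**
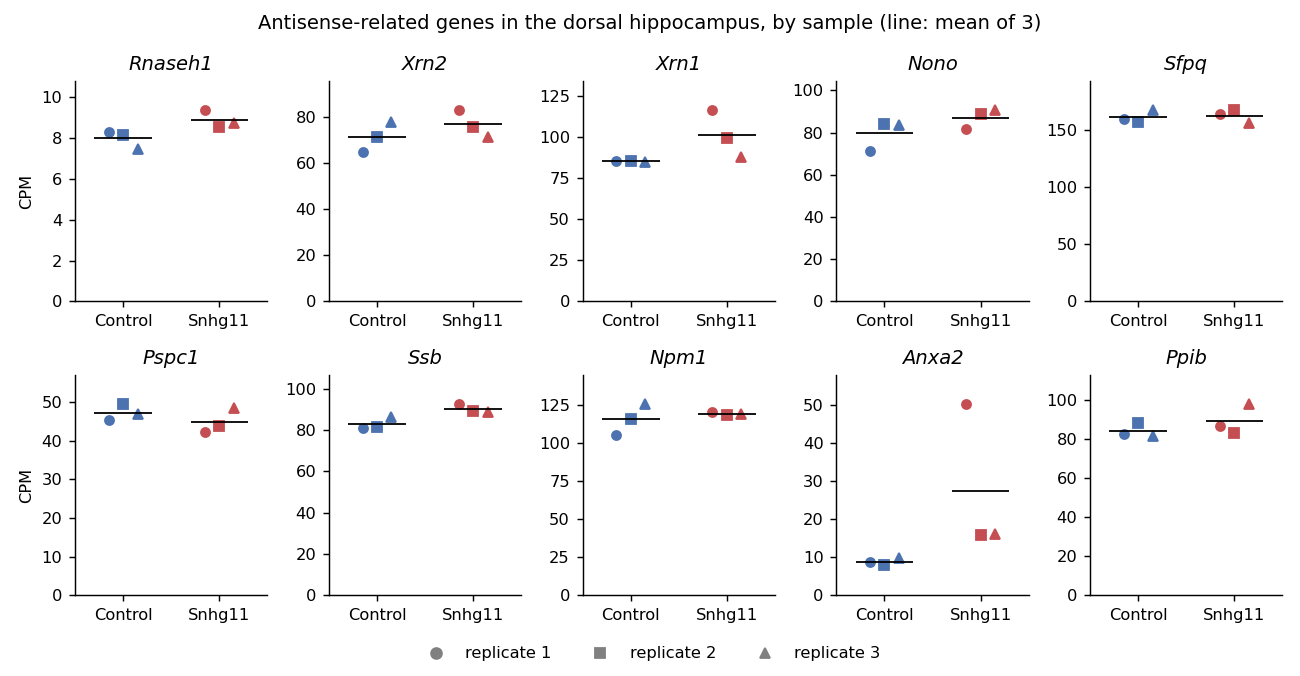
Level of each of the 10 genes in CPM (vertical axis from 0) in the 3 Control-ASO (blue) and 3 Snhg11-ASO (red) libraries, with the replicate number as the marker and a line at the mean of 3. Anxa2 is the panel in which the groups are far apart, with Snhg11-ASO replicate 1 at 50.3 CPM, and in Sfpq the groups lie on top of each other.

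The members differed widely in how much RNA the tissue held. Divided by exonic length, Npm1 was highest in Control-ASO at 43.4 ± 3.86 CPM per kb (SD, n = 3), followed by Ssb at 38.4 ± 1.41, Sfpq at 34.0 ± 1.20 and Ppib at 25.5 ± 1.07 CPM per kb. Nono at 18.2 ± 1.68 and Xrn2 at 17.9 ± 1.63 CPM per kb came next, then Pspc1 at 8.23 ± 0.386 and Xrn1 at 4.58 ± 0.0199 CPM per kb. The ranges of the 3 Control-ASO libraries overlapped only between Npm1 and Ssb and between Nono and Xrn2, among neighbours in this order. Rnaseh1 and Anxa2, the enzyme and the membrane protein, were the lowest at 3.09 ± 0.170 and 2.36 ± 0.223 CPM per kb, near the median of 2.77 CPM per kb over all tested genes with a length. Anxa2 was below Rnaseh1 in each Control-ASO library and above it in each Snhg11-ASO library, where it had 13.5, 4.25 and 4.32 CPM per kb against 3.63, 3.31 and 3.38 for Rnaseh1. The order across the other 8 genes was the same in all 6 libraries except between Nono and Xrn2, which changed places.

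**Figure D2:**
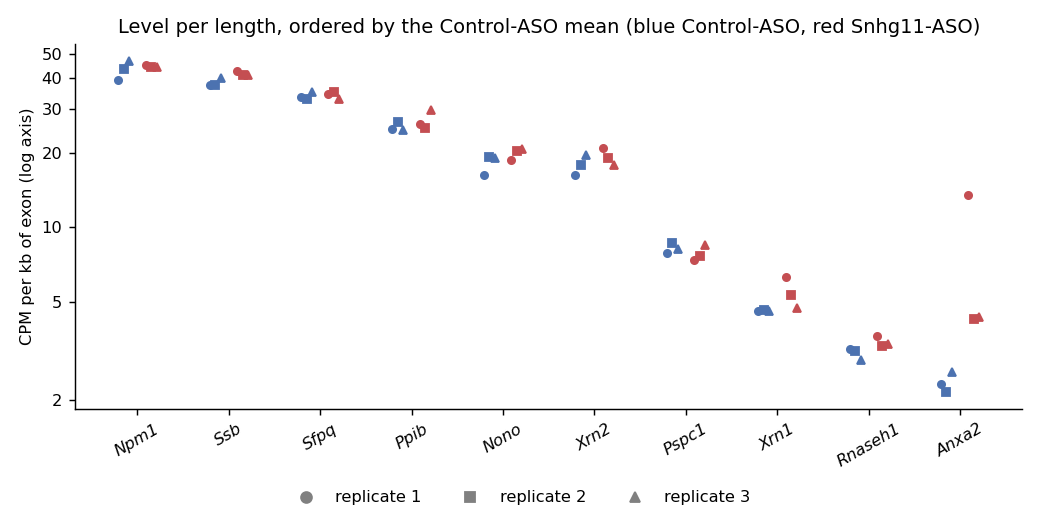
CPM per kb of exon (log axis) for each gene, ordered by the Control-ASO mean, in Control-ASO (blue) and Snhg11-ASO (red) libraries. Levels run from 43.4 CPM per kb for Npm1 to 2.36 for Anxa2 in Control-ASO, and Anxa2 is the gene whose red points leave its place in the order.

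The sequence just before the start of Anxa2, the gene with the largest difference, is shown beside that of Sfpq, the gene with the smallest. RefSeq (GRCm38.p6) gave a promoter window, from 250 bases before the start to 50 after it, for 8 of the 10 genes, and none for Rnaseh1 and Npm1. Each window was searched on both strands for 4 motifs, namely the AP-1 site as TGANTCA, the box of the TATA-binding protein as TATAAA, the GC box as GGGCGG, and the CCAAT box by its name. Anxa2 is shown from chr9:69453433-69453619, up to the start of its GENCODE gene, with the AP-1 match in capitals, and Sfpq from chr4:127021051-127021300 with its 4 CCAAT matches in capitals (3 of them are read on the other strand, and the middle matches overlap). Both lie on the + strand.

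Anxa2: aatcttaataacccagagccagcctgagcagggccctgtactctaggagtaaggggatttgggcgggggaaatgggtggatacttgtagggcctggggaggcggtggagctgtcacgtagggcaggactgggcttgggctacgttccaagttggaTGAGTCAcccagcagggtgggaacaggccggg
Sfpq: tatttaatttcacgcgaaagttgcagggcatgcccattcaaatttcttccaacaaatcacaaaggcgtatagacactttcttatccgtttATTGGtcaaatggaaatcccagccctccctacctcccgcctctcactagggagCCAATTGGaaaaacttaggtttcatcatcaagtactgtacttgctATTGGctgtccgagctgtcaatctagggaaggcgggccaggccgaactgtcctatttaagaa

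The AP-1 match of Anxa2 begins 95 bases before the RefSeq start, and a TATAAA match begins 17 bases before it, outside the stretch printed because GENCODE starts the gene 63 bases earlier than RefSeq. Among the 8 windows, Anxa2's was the only one with an AP-1 match, and the only one with a TATAAA match. The windows of the related genes Anxa1, Anxa4, Anxa5, Anxa7 and Anxa11, searched in the same way, held no AP-1 match. Of these, Anxa1 alone held TATAAA. Over all 32851 mouse windows, 7.81% held the AP-1 motif and 13.6% held TATAAA. The GC box, present in 35.7% of all windows, was found in those of Anxa2, Ssb, Ppib, Xrn1 and Pspc1. CCAAT, present in 37.4%, was found in those of Sfpq, Nono, Ppib and Pspc1. The Xrn2 window held none of the 4 motifs. These matches describe the letters of the windows, and no binding was measured.

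Rnaseh1 (ENSMUSG00000020630, chr12:28649602-28659589 of GRCm38, + strand) encodes the cutting enzyme. Its level was 8.29, 8.17 and 7.48 CPM in Control-ASO and 9.39, 8.57 and 8.75 CPM in Snhg11-ASO, so that each Snhg11-ASO library lay above each control by a small margin. The means were 7.98 ± 0.439 and 8.90 ± 0.432 CPM (SD, n = 3), a log2 fold change of 0.16 (SE 0.14, 95% interval -0.17 to 0.48, unadjusted p = 0.287, adjusted p = 0.784, edgeR). The interval covers folds from 0.892 to 1.39, from counts of 244 to 382 pairs. The two-sided exact permutation test gave p = 0.1, the smallest that 3 against 3 samples allow, for Rnaseh1 and likewise for Xrn1, Ssb and Anxa2.

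The 3 subunits of RNase H2, the other nuclear RNase H, which removes ribonucleotides from DNA and is not the enzyme ASOs are known to use, had overlapping groups. Rnaseh2a had a log2 fold change of 0.11 (SE 0.14), Rnaseh2b one of -0.04 (SE 0.16) and Rnaseh2c one of -0.35 (SE 0.22, unadjusted p = 0.161 in edgeR's test). Rnaseh2c was at 7.65, 6.0 and 7.24 CPM in Control-ASO and 5.04, 4.38 and 6.96 CPM in Snhg11-ASO.

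Xrn1 (ENSMUSG00000032410, chr9:95954760-96057803, + strand) encodes the exonuclease that degrades decapped and cut RNA from its 5′ end in the cytoplasm. It was at 85.0, 85.6 and 84.9 CPM in Control-ASO and at 116, 99.1 and 87.6 CPM in Snhg11-ASO. The controls were nearly identical, with an SD of 0.435% of their mean where counting alone gives 1.5% to 2.0% per library, while the Snhg11-ASO libraries were spread more widely and the lowest of them was close to the controls. The log2 fold change was 0.25 (SE 0.12, 95% interval -0.03 to 0.52, unadjusted p = 0.0697, adjusted p = 0.644, edgeR). It was 0.13 (unadjusted p = 0.131) without Snhg11-ASO replicate 1 and 0.34 (unadjusted p = 0.0199) without Snhg11-ASO replicate 3.

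Xrn2 (ENSMUSG00000027433, chr2:147012996-147078000, + strand), the nuclear counterpart, which also acts in transcription termination, was at 64.9, 71.3 and 77.8 CPM in Control-ASO and 83.1, 75.8 and 71.3 CPM in Snhg11-ASO. Its groups overlapped, and the log2 fold change was 0.11 (SE 0.11, 95% interval -0.14 to 0.35, unadjusted p = 0.351 in edgeR's test). Within a library the log2 ratio of Xrn2 to Xrn1 per kb was 1.83, 1.96 and 2.10 in Control-ASO against 1.74, 1.84 and 1.93 in Snhg11-ASO. The difference of -0.13 was within the overlap of the groups (two-sided exact permutation test, p = 0.3, and 0.4 adjusted over the 3 ratios compared).

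The decay factors around these exonucleases showed no member at an unadjusted p under 0.05. Of 20 decapping and cytoplasmic decay factors listed, 18 matched a gene symbol, and their median log2 fold change was 0.05 with 12 above 0. Dcp1b, a cofactor of the decapping enzyme, had the smallest p of these, at 16.0, 17.9 and 16.1 CPM in Control-ASO against 12.6, 15.6 and 12.7 CPM in Snhg11-ASO (log2 fold change -0.29, SE 0.14, edgeR unadjusted p = 0.0714). The 22 genes of the RNA exosome, which degrades RNA from the 3′ end, and its cofactors had a median of 0.09 with 18 above 0. The lowest p was that of Exosc9, an exosome core subunit, at a log2 fold change of 0.30 (SE 0.16, edgeR unadjusted p = 0.109). When Snhg11-ASO replicate 1 was left out, the decapping list had a median of -0.05 and the exosome list one of 0.0030, and Exosc9 was at 0.14. Over all tested genes the median was 0.01 and 51.7% lay above 0.

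Nono, Sfpq and Pspc1 encode the 3 DBHS proteins, which pair with each other, bind RNA and build paraspeckles on the long non-coding RNA Neat1. Nono (ENSMUSG00000031311, chrX:101429318-101448591, + strand) was at 71.1, 84.0 and 83.7 CPM in Control-ASO and at 81.7, 88.8 and 90.8 CPM in Snhg11-ASO, and the low control was replicate 1. Its log2 fold change was 0.13 (SE 0.10, 95% interval -0.11 to 0.37, edgeR unadjusted p = 0.232).

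Sfpq (ENSMUSG00000028820, chr4:127021324-127037013, + strand) was at 159, 157 and 167 CPM in Control-ASO and at 163, 167 and 156 CPM in Snhg11-ASO. The groups had almost the same mean, 161 ± 5.68 and 162 ± 5.61 CPM (SD, n = 3), and the log2 fold change of 0.01 (SE 0.08, edgeR unadjusted p = 0.907) had a 95% interval of -0.18 to 0.20. Its sign is negative under several of the other settings tried. Sfpq shares 216 exonic bases with Gm12940 on the same strand, 4.55% of its exonic length, and pairs that fall on such bases are assigned to neither gene.

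Pspc1 (ENSMUSG00000021938, chr14:56720710-56778316, - strand), the least abundant of the 3, was at 45.2, 49.6 and 46.8 CPM in Control-ASO and at 42.4, 43.8 and 48.4 CPM in Snhg11-ASO. It was the only member with a negative log2 fold change in the fit of all 6 libraries, -0.07 (SE 0.10, 95% interval -0.30 to 0.15, edgeR unadjusted p = 0.463), and its groups overlapped. Set against Nono in the same library, Pspc1 was lower in each Snhg11-ASO library: the log2 ratio per kb was -1.04, -1.15 and -1.23 in Control-ASO against -1.34, -1.41 and -1.30 in Snhg11-ASO. The difference was -0.21 (two-sided exact permutation test, p = 0.1, and 0.3 adjusted over the 3 ratios). The log2 ratio of Sfpq to Nono, at 1.05, 0.78 and 0.88 in Control-ASO against 0.88, 0.79 and 0.66 in Snhg11-ASO, overlapped between the groups.

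Of 19 further paraspeckle components, 0 passed an unadjusted p of 0.05 and the median log2 fold change was 0.03, or -0.03 without Snhg11-ASO replicate 1. Neat1, the RNA scaffold, was at 374, 120 and 112 CPM in Control-ASO and at 7112, 165 and 168 CPM in Snhg11-ASO. Replicate 1 was the highest library of each group, and in Snhg11-ASO it exceeded the next highest many times over. The log2 fold change of 3.62 (SE 1.54, edgeR unadjusted p = 0.0514) rests on that library: without Snhg11-ASO replicate 1 it was -0.28 (unadjusted p = 0.616), with the replicate number as a block 1.62 (unadjusted p = 0.107), and without replicate 1 of both groups 0.52 (unadjusted p = 9.75e-04).

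Ssb (ENSMUSG00000068882, chr2:69861562-69871846, + strand) encodes La, a chaperone that binds the 3′ ends of new small RNAs. It was at 80.9, 81.6 and 86.5 CPM in Control-ASO and at 92.9, 89.5 and 89.0 CPM in Snhg11-ASO. The groups did not overlap, and each was narrow, with means of 83.0 ± 3.05 and 90.5 ± 2.13 CPM (SD, n = 3). The log2 fold change was 0.12 (SE 0.08, 95% interval -0.06 to 0.31, edgeR unadjusted p = 0.151, adjusted p = 0.713). It moved with the offsets used, to 0.23 with offsets for the GC content of transcripts (unadjusted p = 0.0331, and 0.0569 with the replicate block added) and to 0.063 with offsets for genomic span (unadjusted p = 0.441). Ssb overlaps Mettl5 and Gm13625 on the opposite strand, and the opposite-strand share of its pairs was between 0.923% and 2.21%.

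Npm1 (ENSMUSG00000057113, chr11:33152287-33163206, - strand) encodes nucleophosmin, an abundant nucleolar protein and histone chaperone that binds phosphorothioate ASOs. Its level was 105, 116 and 126 CPM in Control-ASO and 121, 118 and 119 CPM in Snhg11-ASO. The Snhg11-ASO libraries lay within the range of the controls, and the log2 fold change was 0.04 (SE 0.09, 95% interval -0.17 to 0.26, edgeR unadjusted p = 0.652). Where its protein lies in the cell is not measured by RNA-seq.

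Ppib (ENSMUSG00000032383, chr9:66060222-66066623, + strand) encodes cyclophilin B, a protein-folding enzyme of the endoplasmic reticulum and a common reference gene. It was at 82.6, 88.3 and 81.8 CPM in Control-ASO and at 86.8, 83.3 and 98.3 CPM in Snhg11-ASO, with the highest value in Snhg11-ASO replicate 3 and overlapping groups. The log2 fold change was 0.09 (SE 0.09, 95% interval -0.14 to 0.31, edgeR unadjusted p = 0.388). Of the 13 other cyclophilin genes, 0 passed an unadjusted p of 0.05, their median was -0.01, and Ppil4 had the smallest p at a log2 fold change of 0.13 (SE 0.13, edgeR unadjusted p = 0.363).

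Anxa2 (ENSMUSG00000032231, chr9:69453620-69491795, + strand) encodes annexin A2, a calcium-dependent membrane-binding protein of the cell surface and endosomes that is known to affect the passage of ASOs through endosomes. It was at 8.67, 8.03 and 9.68 CPM in Control-ASO, from 255, 270 and 326 pairs, and at 50.3, 15.8 and 16.1 CPM in Snhg11-ASO, from 1918, 662 and 704 pairs. The controls were close together. The Snhg11-ASO libraries all lay above them, replicates 2 and 3 close to each other and replicate 1 far above both. The log2 fold change was 1.64 (SE 0.46, 95% interval 0.54 to 2.74), which is 3.12-fold with an interval of 1.46 to 6.68, at an unadjusted p of 0.00961 and an adjusted p of 0.498 in edgeR's quasi-likelihood test.

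Without Snhg11-ASO replicate 1 the difference in Anxa2 was smaller, at a log2 fold change of 0.86 (SE 0.12, 95% interval 0.58 to 1.14, edgeR unadjusted p = 2.28e-04, adjusted p = 0.173). The smaller SE reflects the removal of the highest value, which left 2 Snhg11-ASO libraries close together, at 15.8 and 16.1 CPM. Over the 21 other settings tried the log2 fold change of Anxa2 ran from 0.85 to 1.92, and the unadjusted p was under 0.05 in all 21. It passed the adjusted threshold in 4 of them, DESeq2 on all libraries and DESeq2 without each Snhg11-ASO library in turn, with adjusted p between 1.62e-05 and 0.0177. Limma-voom with sample weights gave 0.91 (SE 0.22, adjusted p = 0.190). In bulk tissue a larger number of cells that hold Anxa2 RNA and more of it per cell cannot be told apart.

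**Figure D3:**
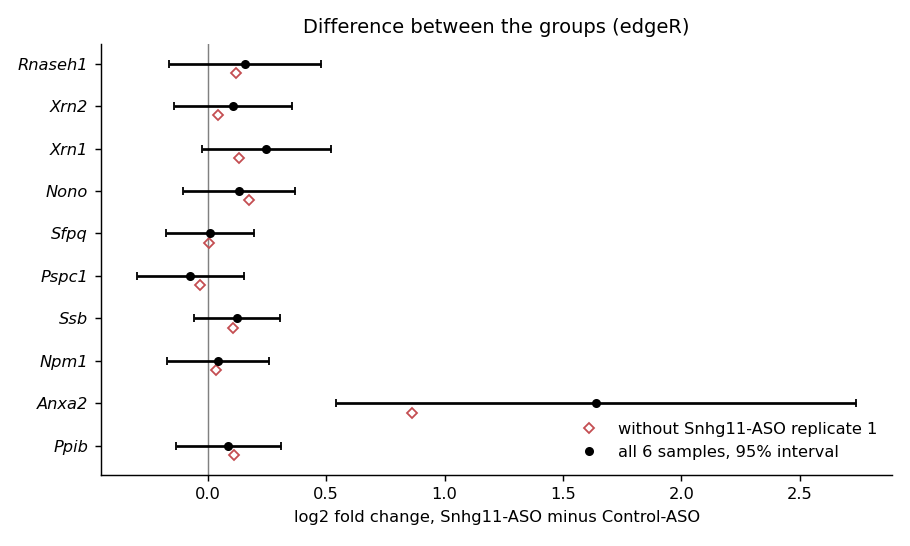
Log2 fold change of Snhg11-ASO against Control-ASO for each gene (horizontal axis), with the 95% interval of edgeR's fit of all 6 libraries (black) and the estimate without Snhg11-ASO replicate 1 (red diamond). The interval of Anxa2, 0.54 to 2.74, is the only one that leaves out 0, and its estimate without that library is 0.86.

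The partner and relatives of annexin A2 also had positive differences. All 8 genes of the list, 7 other annexins and S100a10, had a log2 fold change above 0, where 51.7% of all tested genes did, with a median of 0.32. Where 8.11% of all tested genes were at an unadjusted p under 0.05, 1 of the 8 was. That gene was Anxa5, which binds phosphatidylserine on membranes, at 20.97, 32.9 and 35.5 CPM in Control-ASO and 38.4, 43.9 and 45.4 CPM in Snhg11-ASO. Its groups did not overlap, the log2 fold change was 0.51 (SE 0.20, edgeR unadjusted p = 0.0380, adjusted p = 0.586), and it was 0.58 without Snhg11-ASO replicate 1. S100a10, whose protein forms a complex with annexin A2 at membranes, was at 6.42, 8.50 and 9.05 CPM in Control-ASO and at 31.97, 6.15 and 14.5 CPM in Snhg11-ASO. Its highest value was in the same library as that of Anxa2, and its lowest was also in the Snhg11-ASO group, in replicate 2. The log2 fold change of 1.13 (SE 0.54, edgeR unadjusted p = 0.0732) was 0.37 (unadjusted p = 0.334) without replicate 1 of Snhg11-ASO.

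Most reactive astrocyte markers lay higher in Snhg11-ASO, as Anxa2 did. The 10 markers summed to 617, 2408 and 1715 CPM in Control-ASO and to 2160, 2959 and 3191 CPM in Snhg11-ASO, with overlapping groups. Gfap, the most abundant of them, had overlapping groups, and without it, a choice made after its values were seen, the 9 others summed to 200, 424 and 317 CPM in Control-ASO and to 1212, 584 and 705 CPM in Snhg11-ASO. Over all tested genes, 3.68% were at an unadjusted p under 0.05 and higher in Snhg11-ASO, and 7.73% had groups apart and higher. Of all 10 such markers 7 were at that p, 7 had groups that did not overlap and lay higher in Snhg11-ASO, and the median log2 fold change was 1.34. With Snhg11-ASO replicate 1 left out, 6 were at that p, around a median of 1.01. The shares over all genes were counted with all 6 libraries only, and the marker lists were chosen with earlier results of these data known. Cd44, a surface receptor for hyaluronan, was at 19.2, 17.7 and 16.5 CPM in Control-ASO and at 200, 34.0 and 43.4 CPM in Snhg11-ASO, highest in replicate 1 as Anxa2 was. Its log2 fold change was 2.38 (SE 0.67), and 1.12 (SE 0.13) without that library. Infiltrating myeloid markers summed to 36.4, 28.7 and 27.0 CPM in Control-ASO and 115, 43.7 and 38.0 CPM in Snhg11-ASO. With all 6 libraries all 10 had positive differences with a median of 0.90, and 2 were at an unadjusted p under 0.05. Of the 10, 1 had groups apart and higher. Chil3 and S100a8, picked after their values were seen, were high in Snhg11-ASO replicate 1 only. Chil3 was at 2.14, 0.149 and 0.623 CPM in Control-ASO and at 41.6, 0.718 and 0.527 CPM in Snhg11-ASO. S100a8 was at 1.05, 0.0297 and 0.386 CPM against 22.3, 0.167 and 0.183 CPM. With Snhg11-ASO replicate 1 left out, 1 marker was at that p, around a median of 0.32. The part of these cells in the difference of Anxa2 was not tested.

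Markers of the tissue around the hippocampus were summed as well, and the part of this tissue in the difference of Anxa2 was not tested. The 10 choroid plexus markers summed to 1932, 37.2 and 1254 CPM in Control-ASO and to 1323, 127 and 69.7 CPM in Snhg11-ASO, and the 10 leptomeningeal markers to 107, 30.6 and 114 CPM and to 56.6, 45.7 and 56.1 CPM. Within Snhg11-ASO the choroid plexus sum was highest in replicate 1, the library in which Anxa2 was highest. The leptomeningeal sum was nearly the same in replicates 1 and 3 of Snhg11-ASO. Both sums were also high in Control-ASO replicates 1 and 3, where Anxa2 was low. In both lists all 10 log2 fold changes were below 0 and 0 were at an unadjusted p under 0.05. Without Snhg11-ASO replicate 1, 3 choroid plexus markers were at an unadjusted p under 0.05, all lower, and the median of that list was -2.88 where it was -0.93 with all libraries. The share of all genes at that p was not counted without that library.

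Of the cell types of the hippocampus itself, neuronal markers summed to 4567, 4823 and 4849 CPM in Control-ASO and to 4088, 4717 and 4421 CPM in Snhg11-ASO. Over all tested genes, 8.11% were at an unadjusted p under 0.05 and 15.4% had groups apart, in either direction. These shares hold for all 6 libraries, and no such share was counted for the fit without Snhg11-ASO replicate 1. The neuronal markers had a median log2 fold change of -0.11, and 7 of 10 lay below 0. Of them 3 had groups apart and lower, 1 had groups apart and higher, and 2 were at that p and lower. These were Syt1, a calcium sensor of synaptic vesicles (log2 fold change -0.32, SE 0.10), and Tubb3, a neuronal tubulin (-0.51, SE 0.18). Leaving out Snhg11-ASO replicate 1 gave 3 at that p, around a median of -0.03. Oligodendrocyte markers summed to 1687, 3106 and 2068 CPM in Control-ASO and to 1713, 3836 and 3046 CPM in Snhg11-ASO. All 10 lay above 0, with a median of 0.29 and 0 at an unadjusted p under 0.05, and leaving out Snhg11-ASO replicate 1 gave 6 at that p, all higher, around a median of 0.64. Microglial markers summed to 242 to 758 CPM and astrocyte markers to 4309 to 7215 CPM, with medians of 0.09 and 0.0048, or 0.51 and 0.29 without that library, in which both sums were the lowest of the 6. At that p were 0 microglial markers and 1 astrocyte marker, or 1 and 3 without that library, all higher in Snhg11-ASO. Endothelial markers at 217 to 268 CPM and dentate granule cell markers at 525 to 653 CPM had medians of 0.03 and -0.02, or 0.04 and 0.12 without that library, and 0 were at that p in either fit. The part of these cell types in the members' differences was not tested. No marker of any list was at 0 in all 6 libraries.

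**Figure D4:**
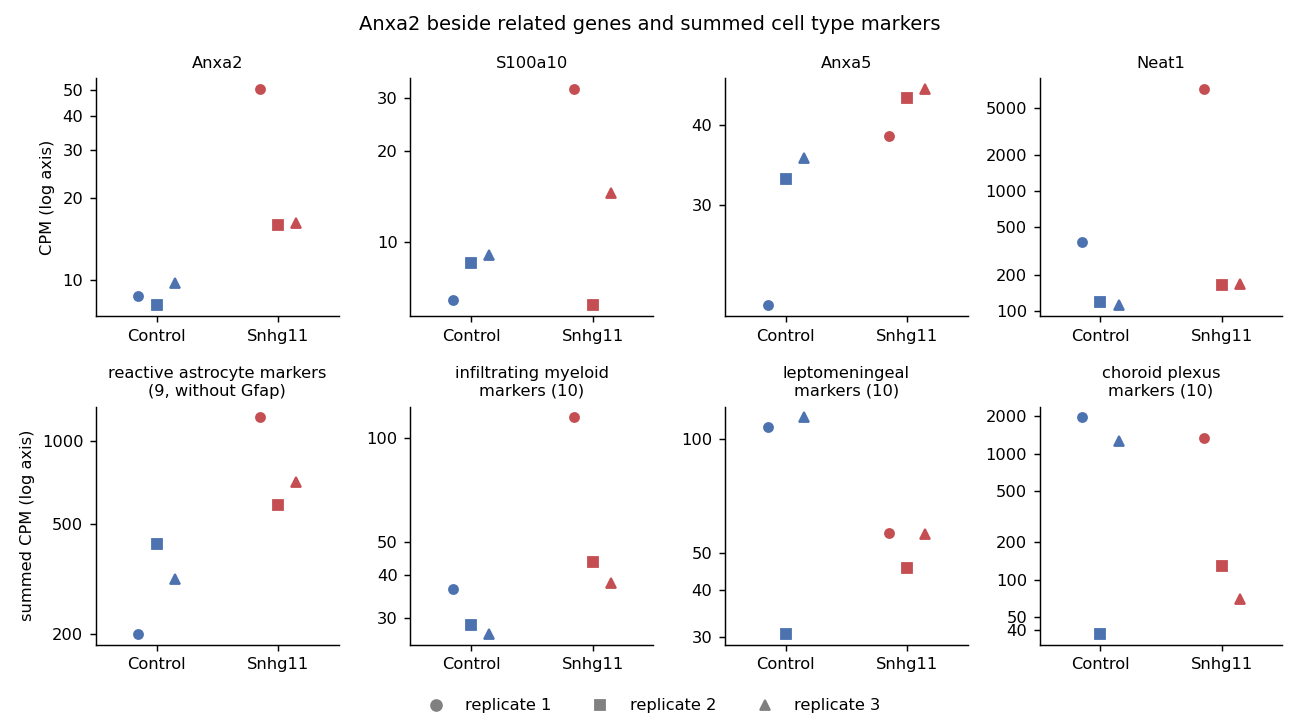
Anxa2, its partner S100a10, Anxa5 and Neat1 (CPM, log axis, top row) and the summed CPM of marker lists (log axis, bottom row) in each library, with the replicate number as the marker. Snhg11-ASO replicate 1 is the highest library for Anxa2, S100a10, Neat1, the infiltrating myeloid sum and the sum of 9 reactive astrocyte markers, from which Gfap was left out, and replicates 2 and 3 also lie above the controls for Anxa2 and both of these sums.

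Of 32 further proteins known to bind phosphorothioate ASOs, such as chaperonin subunits and heterogeneous nuclear ribonucleoproteins, 25 had a log2 fold change above 0, where 51.7% of all genes did, the median was 0.07, and 0 were at an unadjusted p under 0.05. Groups were apart and higher in Snhg11-ASO for 7 of the 32 and apart and lower for 0, where 7.73% of all genes were apart and higher. Ptbp1, a splicing regulator, had the smallest p of these at 28.3, 23.9 and 24.9 CPM in Control-ASO and 51.9, 29.4 and 29.1 CPM in Snhg11-ASO (log2 fold change 0.52, SE 0.24, edgeR unadjusted p = 0.0666), and its log2 fold change was 0.19 without Snhg11-ASO replicate 1. Of 20 genes of uptake and endosomal trafficking, 1 was at an unadjusted p under 0.05. This was Rab5c, a small GTPase of early endosomes, which was at 60.2, 76.2 and 61.7 CPM in Control-ASO and at 55.4, 55.2 and 51.8 CPM in Snhg11-ASO, without overlap and lower in Snhg11-ASO (log2 fold change -0.29, SE 0.11, edgeR unadjusted p = 0.0404, adjusted p = 0.592). The median of the 20 was 0.08, and 0.03 without Snhg11-ASO replicate 1. Over all the lists of related genes together 2, Anxa5 and Rab5c, were at an unadjusted p under 0.05. They made up 12.5% of the annexin list and 5.0% of the uptake list, and each other list held 0%. The share over all these lists together was smaller than the 8.11% of all tested genes.

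**Figure D5:**
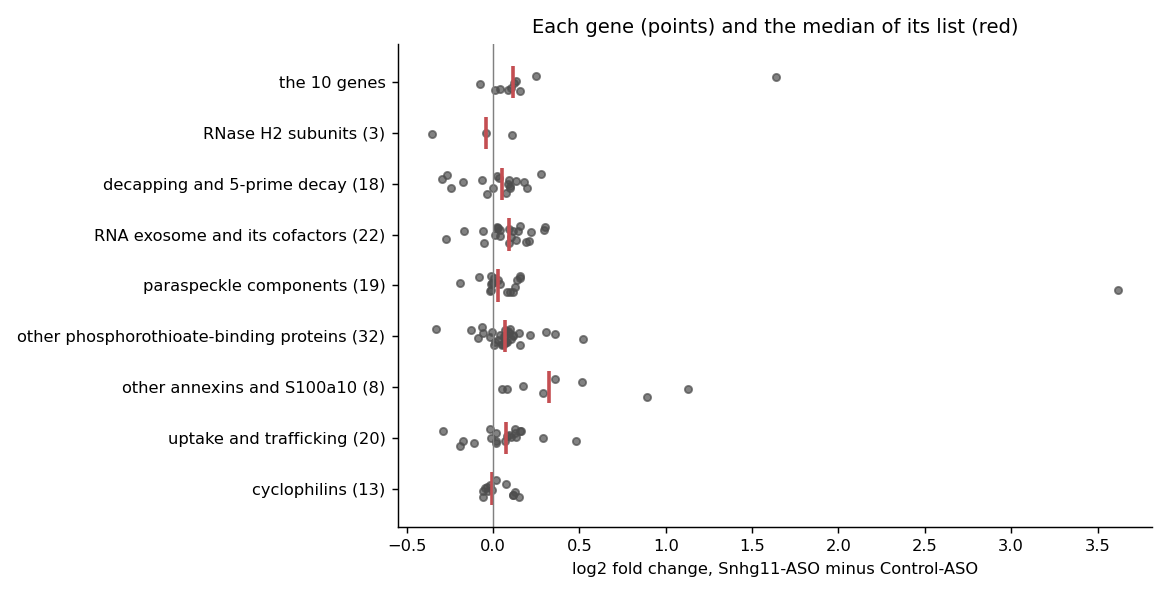
Log2 fold change of Snhg11-ASO against Control-ASO (horizontal axis) for each gene of the 10 and of 8 lists of related genes, with the median of each list in red. Medians lie between -0.04 and 0.32, and the points far from 0 are Anxa2 at 1.64 and S100a10 at 1.13, with Neat1 at 3.62.

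As a list, 9 of the 10 genes had a log2 fold change above 0 and the median was 0.11, with or without Anxa2, against 0.01 over all tested genes. At an unadjusted p under 0.05 stood 1 of 10 members, where 8.11% of all genes did so in either direction, and that member was higher in Snhg11-ASO, as 3.68% of all genes were. This share is near the background. Groups did not overlap for 4 of 10 members, all 4 higher in Snhg11-ASO, where 15.4% of all tested genes had groups apart and 7.73% were apart and higher. The members were chosen with earlier results of these data known, so these comparisons are description only.

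The 9 members other than Anxa2 were steady among the libraries. Their within-group SD of log2 CPM was between 0.0441 for Ssb and 0.146 for Xrn1, where the median over all genes was 0.260, and that of Anxa2 was 0.681. In Control-ASO level per kb the 9 lay above 52.5% (Rnaseh1) to 97.6% (Npm1) of tested genes. Spread and interval width depend on counts, and neither comparison with all genes was matched for level. For 8 of the 10 members the 95% interval of the log2 fold change lay within 0.5 of 0, as it did for 29.6% of all tested genes, and the exceptions were Xrn1 and Anxa2. For those 8 genes a difference of more than 0.5 on the log2 scale between the 2 ASO groups lies outside the interval of the fit of all 6 libraries. For Rnaseh1 this holds narrowly, with an upper end of 0.48, and intervals of the other settings were not compared with 0.5. The intervals say nothing of a change that both ASOs could share.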

How the data were processed

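Gene counts were deposited by the authors as 1 table per library, made with STAR 2.5.2a on GRCm38/mm10 (the study's methods also name Rsubread), and hold raw whole-number counts per gene, unstranded and by strand. The reverse-strand counts were used, since 96.2% to 96.8% of strand-resolved counts lay there. The 4 summary lines that name no gene held 43.5% to 51.4% of pairs and were left out. GENCODE M21 symbols matched 55141 of 55401 gene identifiers. The 3 Control-ASO and 3 Snhg11-ASO libraries were compared with edgeR 4.0.16 (filterByExpr with a minimum count of 10, TMM scaling, quasi-likelihood F test, R 4.3.3), and p-values were adjusted by Benjamini-Hochberg over the 19969 genes that passed, with a threshold of 0.05. The script was tested on simulated data. CPM are TMM-scaled, and CPM per kb uses merged exonic length.

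The study removed 1 Snhg11-ASO library that it does not name, so none was removed here. Same-numbered libraries deviated together (correlations of 0.297, 0.179 and 0.103 over genes, with 0.188 between Control-ASO replicate 2 and Snhg11-ASO replicate 3), and the replicate number was used as a block in an alternative. The other alternatives were DESeq2 1.42.0, limma-voom with sample weights (limma 3.58.1), other scaling and filters, both strands, offsets for genomic span or GC content, and leaving out each library. Leaving out replicate 1 of both groups was chosen after seeing the data. All 10 members were named, with the gene of smallest p from each list, all genes of lists of 5 or fewer, Neat1, S100a10 and Snhg11, and up to 3 genes of a marker list. The members and lists were chosen with earlier results of these data known.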

Additional observations from a re-analysis of the deposited data

How the results depend on the processing

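The direction of Rnaseh1, Xrn1, Nono, Pspc1, Ssb, Anxa2 and Ppib was the same under all 21 alternatives to the fit of all 6 libraries. Their size was not: Ppib, at 0.087, was 0.0052 with counts of both strands and 0.013 to 0.13 with 1 library left out (lowest without Snhg11-ASO replicate 3), and Nono, at 0.13, was 0.047 without Control-ASO replicate 1 and 0.070 with span offsets. Ssb, at 0.12, ran from 0.063 to 0.23, Rnaseh1, at 0.16, from 0.096 to 0.18, Xrn1, at 0.25, from 0.13 to 0.34 and Pspc1, at -0.074, from -0.14 to -0.034. Sfpq, at 0.01, was -0.055 with genomic span offsets, -0.055 with span offsets and the replicate block, -0.019 in DESeq2 without Snhg11-ASO replicate 2, -0.0064 without replicate 1 of both groups, and between -0.013 and 0.036 with 1 library left out. Npm1, at 0.04, was -0.020 with span offsets, -0.017 with these and the replicate block, -0.031 without replicate 1 of both groups, and between -0.029 and 0.10 with 1 library left out. Xrn2, at 0.11, was -0.022 without replicate 1 of both groups and up to 0.17 with 1 library left out. The cause was not tested.

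Genes past the adjusted threshold numbered 0 in edgeR, 0 to 2 with 1 library left out (2 without Snhg11-ASO replicate 1), 7 in limma-voom, 251 in DESeq2 and 346, 268 and 216 in DESeq2 without Snhg11-ASO replicate 1, 2 and 3. Members at an unadjusted p under 0.05 numbered 1, and 2 with span offsets (Xrn1 added) or GC offsets (Ssb added). With 1 library left out they numbered 1 to 2 in edgeR and 1 to 2 in DESeq2, the second being Xrn1 without Snhg11-ASO replicate 3. Members with groups apart numbered 4, and 4 to 5 with other scaling, strands or libraries. With fewer libraries, groups lie apart more easily. Genes of the related lists at an unadjusted p under 0.05 numbered 2, and 5 in DESeq2 or without Snhg11-ASO replicate 1. For all genes, the shares with groups apart (15.4%) and at an unadjusted p under 0.05 (8.11%) have a narrower base. They were counted only in the edgeR fit of all 6 libraries without a block or offsets. With the replicate block, the pairing of numbers changed no call of a member: Anxa2 was at 1.41 (adjusted p = 0.490). Of the members, Rnaseh1 had the lowest counts, with a counting error of 5.12% to 6.40% per library.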

Other observations

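Pairs on the strand opposite to each member were few. At Anxa2 there was 1 such pair in Control-ASO replicate 2 and 1 in Snhg11-ASO replicate 1, and 0 in the other libraries. Ppib had the largest opposite-strand share, 0.750% to 2.30% of its pairs, and shares 825 exonic bases, 25.0% of its exonic length, with Snx22, a sorting nexin gene on the opposite strand. Xrn1 shares 184 exonic bases with the antisense gene Gm16794, which had 64 to 141 pairs per library where Xrn1 had 2500 to 4439. Mir3109, a microRNA gene inside Anxa2 on the same strand, was counted separately, at 1, 2 and 0 pairs in Control-ASO and 10, 3 and 3 pairs in Snhg11-ASO.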
